A study of Mus musculus with 8 samples.

Results

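Prostaglandins are local lipid signals, and the genes described here carry the steps from membrane lipid to receptor. The 9 genes were chosen by symbol: Pla2g4a, Ptgs1, Ptgs2, Ptges, Ptges2, Ptges3, Ptgis, Hpgd and Ptger4. All 9 were among the 23366 gene symbols of the count table. They are not all synthesis enzymes, since Hpgd encodes the enzyme that inactivates prostaglandins and Ptger4 encodes a receptor. Their RNA was counted in 8 libraries of C57BL/6 MEFs, the fibroblasts that are cultured from mouse embryos, at passages 3 to 5. The groups of 2 libraries each were Kdm3a KO cells without glucose for 12 h (KO-labelled starved), Kdm3a KO cells at 0 h (KO-labelled fed), wild-type cells without glucose for 12 h (WT starved) and wild-type cells at 0 h (WT fed). Kdm3a encodes a histone demethylase, and the study set knockout against wild-type cells with nutrients and without glucose. The medium of fed cells was DMEM with 10% serum, whereas starved cells were washed and given glucose-free DMEM with 10% dialyzed serum. No group was kept fed for 12 h, so loss of glucose, the dialyzed serum, the wash and the time cannot be told apart, and starvation below means all of them. How the knockout allele was made, and whether replicates came from separate embryos or cultures, is not given in the sources used here, so p-values reflect the spread among these libraries alone, and that spread may be technical.

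Arachidonic acid is cut from membrane phospholipids, chiefly by the cytosolic phospholipase encoded by Pla2g4a. The cyclooxygenases, encoded by Ptgs1 and Ptgs2, turn it into prostaglandin H2, and terminal synthases then make prostaglandin E2 (Ptges, Ptges2, Ptges3) or prostacyclin (Ptgis). Ptgs1 is known as the constitutive isoform and Ptgs2 as the isoform that stress, growth factors and cytokines induce in fibroblasts. Prostaglandin E2 signals through EP receptors, of which EP4 (Ptger4) raises cyclic AMP, and 15-hydroxyprostaglandin dehydrogenase (Hpgd) ends the signal.

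Libraries held 38407520 to 53602289 counts, and replicates correlated at r = 0.9982 to 0.9988 across genes, which are not independent replicates. Levels are in CPM, read counts scaled to a common library size with TMM factors. A gene was called where edgeR's quasi-likelihood test gave an adjusted p under 0.05 over the 14418 genes tested. Kdm3a itself stood at 65.4 and 66.7 CPM in KO-labelled starved libraries and at 176 and 185 CPM in WT starved libraries. In the fed libraries it stood at 55.2 and 55.4 CPM in KO-labelled cells and at 56.1 and 56.4 CPM in WT cells (log2 difference -0.02 ± 0.043, adjusted p = 0.619, or 0.09 with library totals and 0.01 with DESeq2). Whole-transcript counts cannot show a missing exon. Because Kdm3a was not lower in fed KO cells, the cells are called KO-labelled throughout. Counts of 4 Y-linked genes were 0 to 2 in KO-labelled libraries and 296 to 1251 in WT libraries, so genotype and sex of the cells cannot be told apart. The 10 fibroblast markers summed to 5360 to 6850 CPM in KO-labelled libraries and 12400 to 16600 CPM in WT libraries, sums led by Vim or Col1a2. Taken singly, 6 were higher and 4 lower in KO-labelled than in WT cells when starved, and 4 were higher and 6 lower when fed. The summed mast cell markers reached at most 0.0994 CPM. With library totals in place of TMM, the median of all genes moved by -0.26 in KO-labelled starvation and -0.46 in WT starvation, and by 0.32 and 0.12 in KO-labelled against WT cells when starved and when fed. Changes are therefore relative to TMM scaling, and directions that turn with library totals are named where they occur.

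The promoters of 3 genes are shown because these genes took different courses in starvation: Ptgs2 had the largest rise of the 9 genes, Ptgs1 differed mainly by genotype, and Ptges fell. Each runs 5′ to 3′ from 250 bases before to 50 bases after the start site annotated by RefSeq on GRCm38.p6, which is not the build of the counts (mm9). The Ptgs2 stretch is chr1:150099781-150100080 on the plus strand, the Ptgs1 stretch chr2:36230176-36230475 on the plus strand and the Ptges stretch chr2:30903248-30903547 on the minus strand. Capitals mark matches on either strand to 5 motifs: TATAAA (the core promoter element bound by TBP), TGACG (core of the cyclic AMP response element), CACGTG (E-box), TTGCGCAA (C/EBP palindrome) and TGATGNAA (composite site of C/EBP and ATF factors).
Ptgs2: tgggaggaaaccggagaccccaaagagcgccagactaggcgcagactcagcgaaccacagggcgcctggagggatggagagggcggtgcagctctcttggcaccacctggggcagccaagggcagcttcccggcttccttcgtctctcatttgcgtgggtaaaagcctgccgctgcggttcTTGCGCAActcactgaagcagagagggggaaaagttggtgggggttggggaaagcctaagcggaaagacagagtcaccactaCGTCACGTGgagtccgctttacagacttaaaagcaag
Ptgs1: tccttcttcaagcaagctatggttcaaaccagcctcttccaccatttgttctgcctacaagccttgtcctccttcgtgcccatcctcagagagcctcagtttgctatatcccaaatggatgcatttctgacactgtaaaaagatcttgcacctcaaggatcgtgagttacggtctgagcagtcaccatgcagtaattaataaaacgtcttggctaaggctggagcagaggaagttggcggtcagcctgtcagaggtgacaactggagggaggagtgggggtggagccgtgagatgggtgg
Ptges: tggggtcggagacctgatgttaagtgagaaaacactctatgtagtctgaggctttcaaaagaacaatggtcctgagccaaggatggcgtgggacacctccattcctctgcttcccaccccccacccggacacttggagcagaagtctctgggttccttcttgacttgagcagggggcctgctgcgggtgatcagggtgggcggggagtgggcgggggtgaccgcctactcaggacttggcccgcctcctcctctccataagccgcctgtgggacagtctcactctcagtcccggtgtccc

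The Ptgs2 promoter held TTGCGCAA starting 69 bases before the annotated start site. It also held TGACG on the reverse strand 13 bases and CACGTG 16 bases after that site, the latter pair sharing letters. Where transcription started in these cells was not measured. Of 32851 promoters of this length in the table, 0.183% held TTGCGCAA, 20.8% TGACG, 7.15% CACGTG, 13.6% TATAAA and 3.97% TGATGNAA. The Ptgs1 and Ptges windows held none of the 5. Of the other genes, Ptges3 had TGACG, Ptges2 had CACGTG, Hpgd had TATAAA and 1 of the annotated Pla2g4a promoters had TATAAA. These matches are letters in a window, not measured binding.

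All 9 genes passed the filter on low counts, Hpgd only through the WT fed libraries, which means that it could hardly be tested without differing there. In KO-labelled starvation 6 of the 9 rose and 1 fell, where 79.7% of all genes tested were called, 39.4% higher and 40.3% lower. In WT starvation 6 rose and 2 fell, where 81.6% of all genes were called, 36.7% higher and 44.8% lower. In KO-labelled against WT cells, 5 genes were higher and 2 lower when starved, where 79.6% of all genes were called, 41.9% higher and 37.7% lower. When fed, 5 were higher and 3 lower, where 74.4% of all genes were called, 34.5% higher and 39.8% lower. The shares called in either direction lie near the background. By direction, rises in starvation were more frequent among the 9 than over all genes, and falls were less frequent. The 9 genes are few and were chosen with earlier results known, so the comparisons are described by sizes and not by counts. The median log2 fold change of the 9 was 0.53 in KO-labelled and 0.71 in WT starvation, against -0.02 and -0.17 over all genes tested. It was 0.13 between starved and 0.38 between fed genotypes, against 0.07 and -0.06 over all genes. With library totals, 4 rose and 2 fell in KO-labelled starvation and 5 rose and 2 fell in WT starvation. Among all genes, the share of calls that were higher was 49.4% (37% with library totals) in KO-labelled starvation, 45% (28.2%) in WT starvation and 52.6% (67.4%) between starved genotypes.

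**Figure D1:**
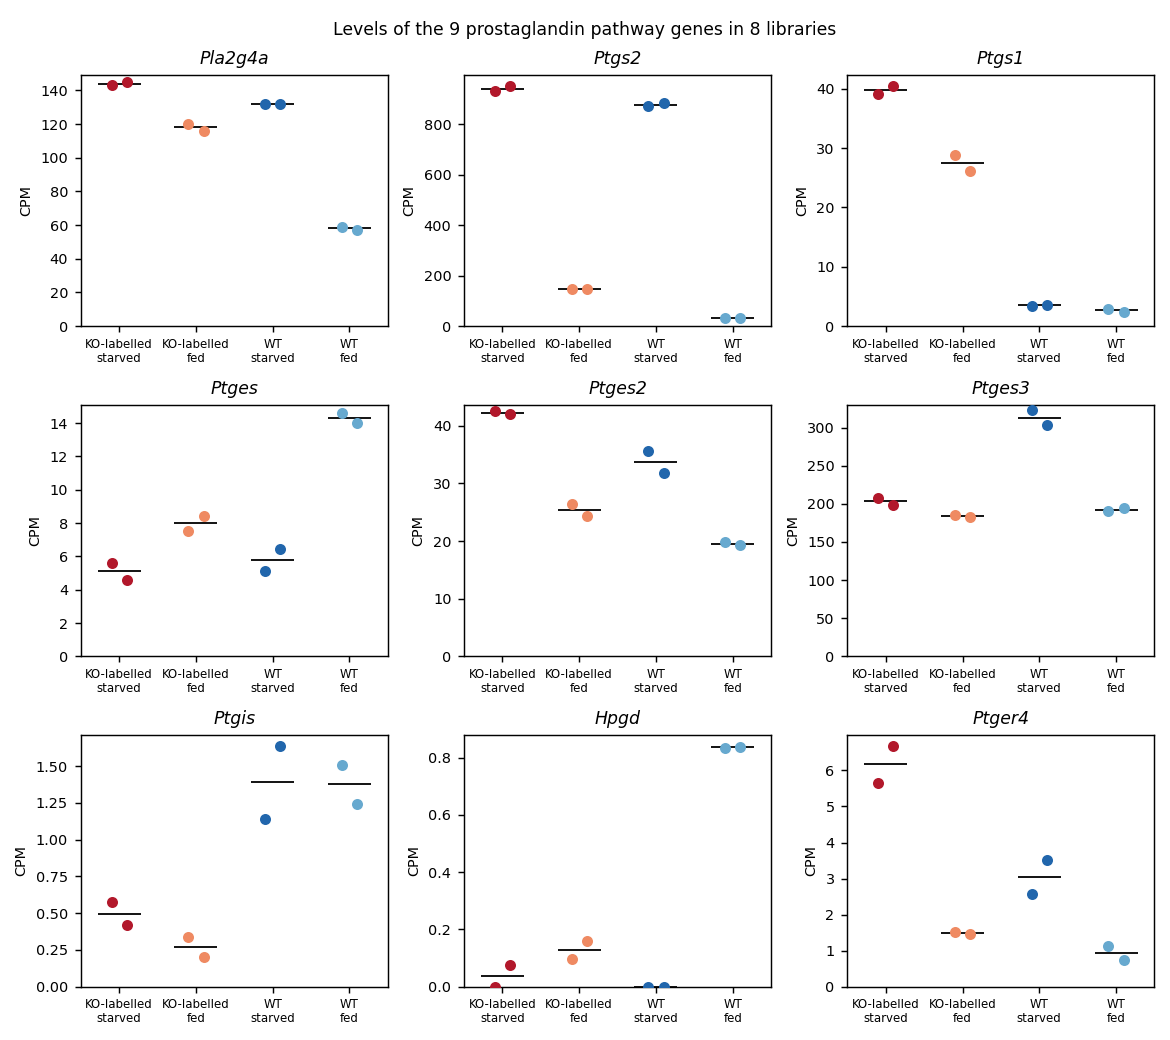
CPM of each of the 9 genes in every library (points) with the mean of each group (line), on a linear axis that starts at 0 and differs between panels. Ptgs2 reached 872 to 952 CPM in the starved libraries of both genotypes, Ptgs1 separated the genotypes, and Hpgd was above 0.2 CPM in WT fed libraries only.

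**Figure D2:**
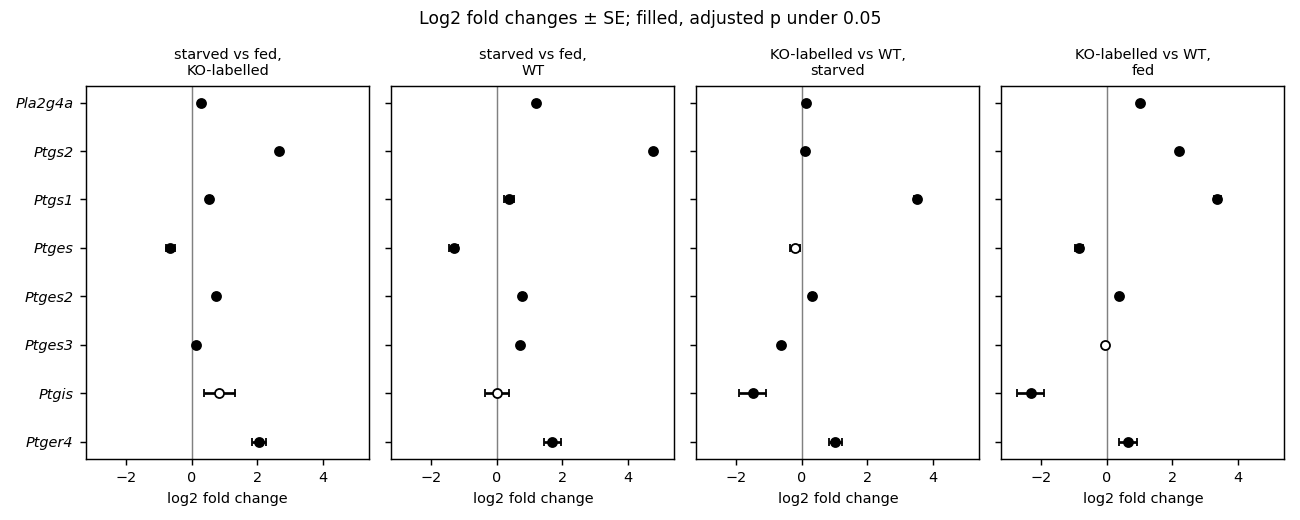
Log2 fold change ± SE of 8 of the genes in the 4 comparisons, filled where the adjusted p was under 0.05; Hpgd is left out because its fitted fold rests on 0 counts. Ptgs2 stands apart in both starvation comparisons and Ptgs1 in both comparisons of the genotypes.

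Pla2g4a (row NM_008869, chromosome 1), the phospholipase that releases arachidonic acid, was high in every group but WT fed. It was read at 143 and 145 CPM in KO-labelled starved libraries and 120 and 116 CPM in KO-labelled fed libraries. In WT it was read at 132 and 132 CPM in starved libraries and 58.8 and 57.2 CPM in fed libraries. The WT fed pair lay apart from the other 6 libraries, which spanned 116 to 145 CPM. Starvation raised it 2.27-fold in WT (1.18 ± 0.04, adjusted p = 4.21e-17) and 1.22-fold in KO-labelled cells, where the call ended with library totals (log2 0.04). Fed KO-labelled cells held 2.03-fold more than fed WT cells (1.02 ± 0.039). Between starved genotypes the log2 difference of 0.13 ± 0.037 was called, but not with DESeq2 (0.07), nor with relative log expression factors (0.07), nor without WT starved replicate 1 or replicate 2 (0.06 each).

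Ptgs2 (NM_011198, chromosome 1), the inducible cyclooxygenase, had the largest rise of the 9 genes in starvation in both genotypes. It stood at 932 and 952 CPM in KO-labelled starved libraries, against 149 and 149 CPM in KO-labelled fed libraries. In WT it stood at 872 and 884 CPM in starved libraries, against 32.5 and 32.4 CPM in fed libraries. The groups did not overlap in any of these comparisons, and the starved libraries of both genotypes lay within 872 to 952 CPM. The rise was 6.31-fold in KO-labelled cells (2.66 ± 0.028) and 27-fold in WT (4.76 ± 0.033), which placed the gene at rank 367 and rank 67 from the highest among 14418 genes. Fed KO-labelled cells held 4.6-fold more Ptgs2 RNA than fed WT cells (2.2 ± 0.033, adjusted p = 7.86e-23). Starved, the genotypes differed by 1.07-fold (0.1 ± 0.026, adjusted p = 0.00136). That difference was no longer called with DESeq2 or relative log expression factors (0.04 each) or without WT starved replicate 1 (0.03) or replicate 2 (0.04).

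Ptgs1 (NM_008969, chromosome 2), the constitutive cyclooxygenase, separated the genotypes and moved little with starvation. It was read at 39.2 and 40.5 CPM in KO-labelled starved libraries and 28.8 and 26.2 CPM in KO-labelled fed libraries. The WT libraries held 3.38 and 3.6 CPM starved and 2.96 and 2.37 CPM fed. Every KO-labelled library was above every WT library. The KO-labelled cells held 11.4-fold more when starved (3.51 ± 0.1) and 10.3-fold more when fed (3.36 ± 0.11, adjusted p = 4.01e-17). Starvation raised it 1.45-fold in KO-labelled cells (0.53 ± 0.074). In WT the rise of 0.39 ± 0.15 (adjusted p = 0.0239) turned to -0.07 with library totals and was not called in a fit of the WT libraries alone (0.46, adjusted p = 0.0585) or without WT fed replicate 2 (0.24, adjusted p = 0.211). An annotated RNA on the opposite strand, Gm43621, overlaps 148 exonic bases of Ptgs1, and whether counting used strand is not given in the sources used here. Macrophages also express Ptgs1, and their 10 markers summed to 53.7 to 54.7 CPM in KO-labelled starved, 21.5 to 22.2 CPM in KO-labelled fed, 7 to 10.2 CPM in WT starved and 19.3 to 19.6 CPM in WT fed libraries. The defining markers Ptprc, Emr1 and Tyrobp were at 0 in all 8 libraries, and the highest marker was Cd68 in starved libraries (40.8 CPM in KO-labelled and 3.7 CPM in WT) and Cd14 in fed libraries (17.4 CPM in KO-labelled and 16.1 CPM in WT). The part of such cells in the Ptgs1 difference was not tested. Fewer cells of a type and less RNA per cell cannot be told apart in bulk libraries.

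Levels of different genes can be set side by side only per length, here CPM per kilobase with transcript lengths of GENCODE M21 (4453 bases for Ptgs2 and 2867 for Ptgs1), which may differ from the gene models behind the counts. On that scale Ptgs2 exceeded Ptgs1 by 15.3 and 15.1 times in KO-labelled starved libraries and by 3.33 and 3.67 times in KO-labelled fed libraries. In WT the ratio was 166 and 158 in starved libraries and 7.06 and 8.81 in fed libraries. Ptgs2 thus made up 93.8 to 93.9% of cyclooxygenase RNA in KO-labelled starved, 76.9 to 78.6% in KO-labelled fed, 99.4% in each WT starved and 87.6 to 89.8% in WT fed libraries. The lowest share, in KO-labelled fed cells, went with more Ptgs2 and more Ptgs1 RNA than in WT fed cells.

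**Figure D3:**
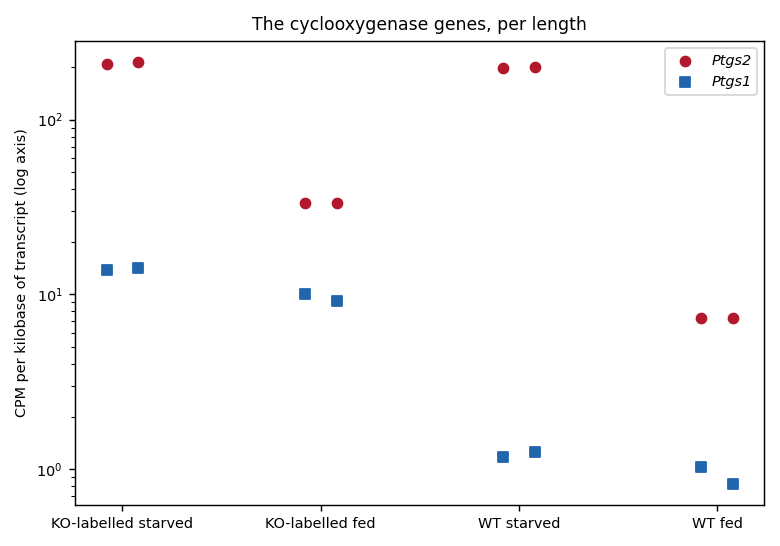
CPM per kilobase of Ptgs2 (circles) and Ptgs1 (squares) in every library, on a log axis. Ptgs2 lies above Ptgs1 in all 8 libraries, by 3.33 times in KO-labelled fed replicate 1 and by 166 times in WT starved replicate 1.

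The synthases of prostaglandin E2 did not move as a block. Ptges (NM_022415, chromosome 2), the inducible microsomal synthase that often rises with Ptgs2 in inflammation, was read at 5.63 and 4.57 CPM in KO-labelled starved libraries and 7.52 and 8.45 CPM in KO-labelled fed libraries. In WT it was read at 5.13 and 6.45 CPM in starved libraries and 14.6 and 14 CPM in fed libraries. Its fed libraries were above its starved ones in both genotypes, opposite to Ptgs2. It fell by 0.65 ± 0.13 on the log2 scale in KO-labelled cells (adjusted p = 0.000143) and by 1.31 ± 0.13 in WT (adjusted p = 1.07e-08), and it was lower by 0.85 ± 0.12 in fed KO-labelled than in fed WT cells. Starved, the genotypes overlapped and differed by -0.19 ± 0.15 (adjusted p = 0.24), a difference called at -0.41 without WT starved replicate 1 and turned to 0.13 with library totals. Per length, Ptgs2 stood at 136 and 171 times Ptges in KO-labelled starved libraries and at 16.3 and 14.5 times in KO-labelled fed libraries. In WT libraries it stood at 139 and 112 times Ptges when starved and at 1.82 and 1.89 times when fed.

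Ptges2 (NM_133783, chromosome 2), a membrane-bound synthase, was read at 42.5 and 42 CPM in KO-labelled starved libraries, against 26.4 and 24.3 CPM in KO-labelled fed libraries. In WT it was read at 35.6 and 31.8 CPM in starved libraries, against 19.8 and 19.3 CPM in fed libraries. It rose by 0.73 ± 0.064 in KO-labelled cells and by 0.79 ± 0.071 in WT, and it was higher in KO-labelled than in WT cells when starved (0.33 ± 0.066) and when fed (0.38 ± 0.07). Ptges3 (NM_019766, chromosome 10), the cytosolic synthase also known as the HSP90 co-chaperone p23, stood at 208 and 199 CPM in KO-labelled starved and 185 and 183 CPM in KO-labelled fed libraries. In WT it stood at 323 and 303 CPM in starved and 190 and 194 CPM in fed libraries, so the WT starved pair lay above the other 6 libraries. It rose by 0.71 ± 0.035 in WT. In KO-labelled cells the rise of 0.14 ± 0.035 became a called fall of -0.11 with library totals and was not called with a minimum of 5 CPM (0.05). Starved KO-labelled cells held 1.54-fold less than starved WT cells (-0.62 ± 0.035), whereas the fed genotypes differed by -0.06 ± 0.035 (adjusted p = 0.135), or by 0.06 with library totals. Per length Ptges3 made up 91.1 to 95% of the RNA of the 3 synthases in all 8 libraries. The annotation lists a pseudogene, Ptges3-ps, so part of its reads could come from a near-identical copy.

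Ptgis (NM_008968, chromosome 2), prostacyclin synthase, a product of vascular and stromal cells, was rare and lower in KO-labelled cells. It had 26 and 22 counts in KO-labelled starved and 21 and 10 counts in KO-labelled fed libraries, against 37 and 54 counts in WT starved and 65 and 52 counts in WT fed libraries. These were 0.576 and 0.416 CPM in KO-labelled starved, 0.34 and 0.199 CPM in KO-labelled fed, 1.14 and 1.64 CPM in WT starved, and 1.51 and 1.24 CPM in WT fed libraries. Each KO-labelled library was below each WT library. It was 2.81-fold lower in KO-labelled cells when starved (-1.49 ± 0.41, adjusted p = 0.00235) and 4.97-fold lower when fed (-2.31 ± 0.42, adjusted p = 5.19e-05). Starvation did not move it past the threshold in KO-labelled cells (0.84 ± 0.47, adjusted p = 0.111) or in WT (0.01 ± 0.37, adjusted p = 0.986), where the value was -0.44 with library totals. An RNA on the opposite strand, 1110018N20Rik, overlaps 156 exonic bases. Smooth muscle markers, of cells that also make prostacyclin, summed to 891 CPM in each KO-labelled starved library and 236 to 241 CPM in KO-labelled fed libraries, against 4880 to 4930 CPM in WT starved and 2930 to 2950 CPM in WT fed libraries. The sums were led by Tagln in starved, Acta2 in WT fed and Smtn in KO-labelled fed libraries. Taken singly, of 6 markers tested, 2 were higher and 3 lower in KO-labelled than in WT cells when starved. When fed, 2 were higher and 4 lower. Smtn was higher in KO-labelled cells, at 140 and 135 CPM starved and 114 and 118 CPM fed. In WT it stood at 90.8 and 91.8 CPM starved and 68 and 68.2 CPM fed. The part of such cells in the Ptgis difference was not tested.

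Hpgd (NM_008278, chromosome 8), which inactivates prostaglandins, was near the detection limit outside WT fed cells. It had 0 and 4 counts in KO-labelled starved and 6 and 8 counts in KO-labelled fed libraries. In WT it had 0 and 0 counts in starved libraries and 36 and 35 counts in fed libraries (0.834 and 0.838 CPM). With 3 counts per library as the floor (0.0915 CPM in WT starved libraries), Hpgd was at least 9.13-fold lower in starved than in fed WT cells (adjusted p = 2.14e-05). In fed KO-labelled cells it was lower than in fed WT cells by a ratio of 6.69 (95% Clopper-Pearson interval 3.73 to 12.8, counting error only, adjusted p = 0.000611). Because Hpgd passed the filter only through the WT fed libraries, both calls against that group were nearly bound to occur. Their adjusted p-values therefore carry little weight. In KO-labelled starvation the ratio of starved to fed counts was 0.326 with an interval of 0.0782 to 1.04 and was not called (adjusted p = 0.16), so a change was not detectable at this depth. Without KO-labelled starved replicate 2, which held all 4 starved counts, the fall was called (adjusted p = 0.0435). No fold is given between starved genotypes, where both groups were at or near the floor.

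Ptger4 (NM_001136079, chromosome 15), the EP4 receptor for prostaglandin E2, rose with starvation in both genotypes. It was read at 5.65 and 6.69 CPM in KO-labelled starved libraries, against 1.51 and 1.45 CPM in KO-labelled fed libraries. In WT it was read at 2.58 and 3.51 CPM in starved libraries, against 1.13 and 0.742 CPM in fed libraries. The order KO-labelled starved, WT starved, KO-labelled fed, WT fed held without overlap. The rise was 4.17-fold in KO-labelled cells (2.06 ± 0.21, adjusted p = 9.01e-09) and 3.23-fold in WT (1.69 ± 0.26, adjusted p = 4.03e-06). KO-labelled cells held more than WT cells when starved (1.02 ± 0.2). When fed, the difference of 0.65 ± 0.27 (adjusted p = 0.034) was not called without WT fed replicate 2 (0.38), KO-labelled fed replicate 1 (0.63) or KO-labelled fed replicate 2 (0.68). On the opposite strand Ptger4 shares 82 exonic bases with Ttc33 and 1015 with the pseudogene Gm15937. Ttc33 was read at 19.2 and 19.7 CPM in KO-labelled starved and 26.7 and 28.7 CPM in KO-labelled fed libraries. In WT it was read at 30.8 and 34.2 CPM in starved and 25.4 and 24.7 CPM in fed libraries. The part of reads from either overlapping gene in the Ptger4 counts was not tested.

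The difference between the starvation responses, KO-labelled minus WT, was called for 5 of the 9 genes, 2 positive and 3 negative. Of all genes, 64.5% were called, 34.1% positive and 30.4% negative, and 52.9% of those calls were positive, or 67% with library totals. Ptgs2 differed by -2.1 ± 0.042 (adjusted p = 2.05e-19), with starved levels close together and fed levels 4.6-fold apart. Pla2g4a differed by -0.89 ± 0.054 in the same arrangement. Ptges3 differed by -0.56 ± 0.049, here with fed levels close together and the starved WT libraries high. Ptges differed by 0.66 ± 0.19 (adjusted p = 0.00456), its fall being smaller in KO-labelled cells, and the call ended without WT starved replicate 1 (0.38, adjusted p = 0.0905). Hpgd was also called, on counts of 0 in WT starved libraries, so its fitted value is no measure of size. Without WT starved replicate 1 the difference was called for 3 of the 9, namely Ptgs2, Pla2g4a and Ptges3. For Ptgs1 (0.15 ± 0.17), Ptges2 (-0.05 ± 0.096), Ptgis (0.83 ± 0.6) and Ptger4 (0.37 ± 0.34) the difference did not pass, which does not show that the responses were alike. The value for Ptges2 turned to 0.15 with library totals and to 0.02 without KO-labelled fed replicate 1, and was called at -0.26 without WT starved replicate 2 (adjusted p = 0.0236). The value for Ptgs1 turned to -0.03 without WT starved replicate 1 and to -0.02 without WT fed replicate 1.

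**Figure D4:**
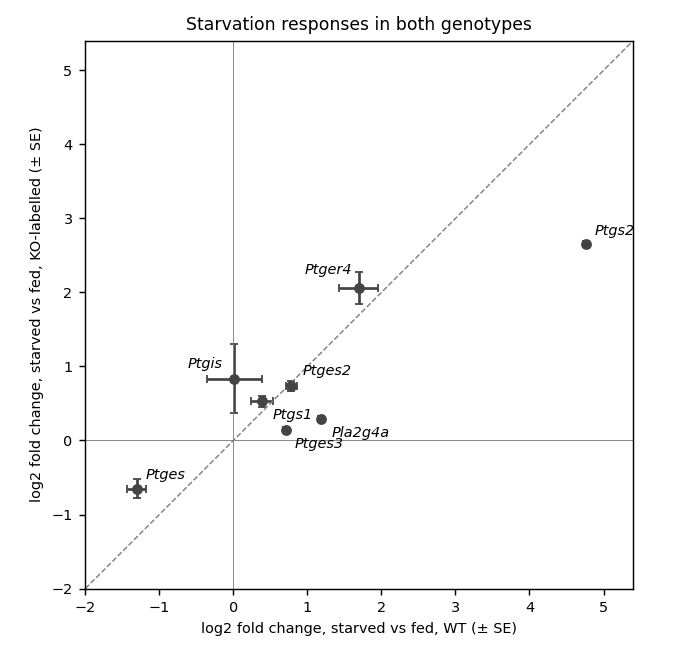
Starvation response of 8 of the genes in KO-labelled cells (vertical) against that in WT cells (horizontal), log2 fold change ± SE, with the line of equal response; Hpgd is left out because its WT starved libraries had 0 counts. Ptgs2 lies farthest below the line, at 2.66 against 4.76, and Ptges has falls on both axes.

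The wider prostanoid pathway was read through 36 further genes, of which 23 were tested. The rest include Ptgds and Hpgds (prostaglandin D2 synthases), Tbxas1 (thromboxane synthase) and the EP receptors Ptger2 and Ptger3, each under 0.3 CPM in every library. In KO-labelled starvation 9 rose and 13 fell (median -0.52), and in WT starvation 2 rose and 17 fell (median -0.91, which becomes -0.98 when bounds replace fitted values of genes at 0 counts). With library totals 6 rose and 14 fell in KO-labelled and 2 rose and 19 fell in WT cells. Among all genes tested, 39.4% rose and 40.3% fell in KO-labelled starvation, and 36.7% rose and 44.8% fell in WT starvation. The tested receptors other than Ptger4 (Ptgfr, Ptger1, Ptgir, Tbxa2r and Gpr44) fell in both genotypes, save Gpr44 in WT. Tbxa2r stood at 0.657 CPM in WT fed, 0.111 CPM in KO-labelled fed and 0 CPM in starved cells. It passed the filter through WT fed libraries, so its WT call, like that of Hpgd, was nearly bound to occur. Ptgir fell in WT from 1.03 to 0.0303 CPM, a log2 value of -3.95 without starved replicate 1 and -8.56 without starved replicate 2. In KO-labelled cells the call of Gpr44 (-0.52) ended without any 1 of the 4 libraries compared (-0.65 to -0.41), and that of Tbxa2r, at 0 counts when starved, ended without fed replicate 1 or starved replicate 2. Ptgfr, the prostaglandin F receptor, was read at 1.17 and 0.51 CPM in KO-labelled starved and 8.9 and 8.37 CPM in KO-labelled fed libraries, and at 0.307 and 0.485 CPM in WT starved and 21.4 and 21.1 CPM in WT fed libraries (falls of 10.5-fold and 53.2-fold, the KO-labelled one 16.8-fold without starved replicate 1). Ptger1, the EP1 receptor, fell by 0.86 and 1.04 on the log2 scale in KO-labelled and WT cells. The prostaglandin D2 receptor Gpr44 stood in WT at 0.829 and 0.878 CPM starved and 1.09 and 0.742 CPM fed, with no call (-0.1).

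Among phospholipases, Pla2g12a, a secreted form, rose 4.32-fold in KO-labelled cells and 2.4-fold in WT. Its responses differed by 0.84 ± 0.09 (KO-labelled minus WT), opposite in sign to the difference for Pla2g4a. Pla2g2e, another secreted form, reached 5.59 and 6.48 CPM in KO-labelled starved libraries, against 0.34 and 0.398 CPM in KO-labelled fed libraries. It stood at 0.123 and 0.242 CPM in WT starved and 0.0463 and 0 CPM in WT fed libraries, where the called rise ended without WT fed replicate 2 or WT starved replicate 2. Pla2g15, a lysosomal phospholipase, fell 3.17-fold in WT and 1.43-fold in KO-labelled cells. Pla2g6, the calcium-independent form, fell by 1.49 and 1.48 on the log2 scale in KO-labelled and WT cells. Pla2g7, which hydrolyses platelet-activating factor, and Pla2g4b, a relative of Pla2g4a, were lower in fed KO-labelled than in fed WT cells by 2.32 and 1.99 on the log2 scale.

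Between starved genotypes, 15 of the 23 tested genes of the wider pathway were higher in KO-labelled than in WT cells and 2 lower (median 0.72, against 0.07 over all genes; 16 and 1 with library totals). Between fed genotypes, 9 of the 23 were higher and 10 lower (median 0.02, with 11 and 8 under library totals). Over all genes tested, 41.9% were higher and 37.7% lower when starved, and 34.5% were higher and 39.8% lower when fed. Slco2a1, the prostaglandin uptake transporter, was read at 258 and 250 CPM in KO-labelled starved libraries and 103 and 103 CPM in KO-labelled fed libraries, but at 82 and 90.3 CPM in WT starved and 115 and 110 CPM in WT fed libraries. It thus rose by 1.31 in KO-labelled cells and fell by 0.38 in WT. Abcc4, an exporter of prostaglandins, was read at 74 and 76.9 CPM in KO-labelled starved and 37.3 and 37.1 CPM in KO-labelled fed libraries, against 29 and 29.7 CPM in WT starved and 30.7 and 29.6 CPM in WT fed libraries. It rose by 1.02 in KO-labelled cells, and the WT difference of -0.04 was not called. Ptgr2, a reductase of 15-keto prostaglandins, the products of Hpgd, was 7.09-fold higher in starved KO-labelled than in starved WT cells (52.1 ± 2.2 and 7.35 ± 0.96 CPM, SD, n = 2 each). Cbr2, a carbonyl reductase, was 6.67-fold higher (304 ± 1.2 and 45.6 ± 5.9 CPM).

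Of 21 tested genes of arachidonate supply and reacylation, 4 rose and 11 fell in KO-labelled starvation (median -0.13, with 4 and 16 under library totals). In WT starvation 5 rose and 14 fell (median -0.27, with 1 and 19 under library totals). The shares over all genes, for this list and the next, were 39.4% higher and 40.3% lower in KO-labelled starvation. In WT starvation they were 36.7% higher and 44.8% lower. Dagla, which makes an arachidonate-bearing endocannabinoid, fell 2.4-fold in KO-labelled cells and 6.25-fold in WT. Mgll, which frees arachidonate from that lipid, was read at 1.5 and 1.15 CPM in WT starved and 9.66 and 8.26 CPM in WT fed libraries, a fall of 6.74-fold, while in KO-labelled cells it stood at 2.48 and 2.65 CPM starved and 2.84 and 2.5 CPM fed and was not called. Fads2, a desaturase on the path to arachidonate, fell 2.22-fold in WT and was not called in KO-labelled cells (log2 -0.02). Acsl1 (an acyl-CoA synthetase) and Lpcat4 (a lysophospholipid acyltransferase) each fell 2.05-fold in KO-labelled cells. In WT they fell 1.84-fold and 1.81-fold. Anxa1, the annexin known to restrain phospholipase A2, was lower in starved KO-labelled cells (615 ± 0.24 CPM) than in starved WT cells (1300 ± 33 CPM). Of the lipoxygenase branch, 9 of 15 genes were tested. Of these, 3 rose and 4 fell in KO-labelled starvation and 2 rose and 2 fell in WT starvation. Aloxe3, an epidermal lipoxygenase relative, rose 11.2-fold in KO-labelled cells and 5.72-fold in WT. Ephx2, an epoxide hydrolase of arachidonate products, was 15-fold higher in starved KO-labelled than in starved WT cells (2.32 ± 0.13 and 0.153 ± 0.13 CPM), or 35.2-fold without WT starved replicate 1 and 8.92-fold without WT starved replicate 2. The falls of this branch in WT were at low levels, namely Ephx2 (0.153 CPM starved, 0.364 CPM fed) and Alox5ap (0.0303 and 0.389 CPM). In KO-labelled cells Alox5ap stood at 0.0443 CPM starved and 0.218 CPM fed. Because it was highest in WT fed cells and close to the filter on low counts, its WT call carries little weight. The WT call of Ephx2 ended with DESeq2 and with relative log expression factors. The WT value of Alox5ap was -2.56 without starved replicate 1 and -7.16 without starved replicate 2. In KO-labelled cells Alox5ap was -1.26 without starved replicate 2 and -6.3 without starved replicate 1.

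The list of regulators of Ptgs2 held transcription factors and RNA-binding proteins. Of its 31 genes, all tested, 13 rose and 14 fell in KO-labelled starvation (median -0.05), and 17 rose and 13 fell in WT starvation (median 0.28). With library totals 10 rose and 15 fell in WT (median -0.18), and 11 rose and 17 fell in KO-labelled cells. Across all genes tested, 39.4% rose and 40.3% fell in KO-labelled starvation, and 36.7% rose and 44.8% fell in WT starvation. Atf3, a stress transcription factor, stood at 185 ± 8.4 CPM in KO-labelled starved and 21.5 ± 0.33 CPM in KO-labelled fed cells, and at 204 ± 7.2 CPM in WT starved and 3.36 ± 0.25 CPM in WT fed cells (SD, n = 2 each). As with Ptgs2, the starved levels of the genotypes were close together, and fed KO-labelled cells stood 6.38-fold above fed WT cells. Ddit3, the stress factor CHOP, rose 44.6-fold in KO-labelled and 36.9-fold in WT cells, but its fed level was lower in KO-labelled than in WT cells (17.7 and 27.3 CPM). Cebpb, a C/EBP factor, was read at 126 and 82.2 CPM in KO-labelled starved and 136 and 128 CPM in KO-labelled fed libraries, and was not called there (-0.35 ± 0.22). In WT it was read at 271 and 114 CPM in starved and 65.5 and 74.8 CPM in fed libraries, and the rise of 1.45 ± 0.23 was 0.77 without WT starved replicate 1. Hnrnpd (AUF1), which binds AU-rich RNA, fell 4.38-fold in KO-labelled cells and 1.24-fold in WT. Zfp36l1, which promotes decay of AU-rich RNA, fell 5.05-fold in WT and 1.8-fold in KO-labelled cells. Fos was higher in KO-labelled than in WT cells by 1.73 when starved and by 1.69 when fed. Celf2, an RNA-binding protein that binds Ptgs2 RNA, was lower by 2.42 when starved and by 1.56 when fed, and Zfp36l2 was lower by 2.23 when starved.

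Of 24 tested genes known to answer EP4 and cyclic AMP, 7 rose and 11 fell in KO-labelled starvation (median -0.22), where 39.4% of all genes rose and 40.3% fell. In WT starvation 9 rose and 12 fell (median -0.63), where 36.7% of all genes rose and 44.8% fell. These counts lie near the background. Nr4a1, a cyclic AMP-induced nuclear receptor, rose 5.72-fold in WT and 2.31-fold in KO-labelled cells. Vegfa, the angiogenic factor, rose 8.11-fold in WT and 2.94-fold in KO-labelled cells. Has2, a hyaluronan synthase, fell 18.4-fold in KO-labelled and 65.7-fold in WT cells. Pde4b, a cyclic AMP phosphodiesterase, fell 4.78-fold in KO-labelled and 5.09-fold in WT cells. Il6 was 29.1-fold higher in fed KO-labelled (15.9 ± 1.8 CPM) than in fed WT cells (0.541 ± 0.021 CPM), and Lif, a cytokine of the same family, was 12.7-fold higher in starved KO-labelled than in starved WT cells.

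Inflammatory genes that cytokines induce together with Ptgs2 went the other way in starvation. Of 18 tested, 2 rose and 15 fell in KO-labelled cells (median -1.84, against -0.02 over all genes). In WT 2 rose and 15 fell (median -1.84, or -1.6 with Il1a, at 0 counts, set to its bound, against -0.17 over all genes). Background shares of falls were 40.3% of all genes in KO-labelled and 44.8% in WT starvation, and those of rises 39.4% and 36.7%. Cxcl5, a neutrophil chemokine, fell 27.6-fold in KO-labelled cells and 57.1-fold in WT. Ccl2, a monocyte chemokine, fell 11.6-fold in KO-labelled cells and 9.05-fold in WT. Nos2, the inducible nitric oxide synthase, fell 10.9-fold in KO-labelled cells and 22.3-fold in WT. Il1rn, the antagonist of the interleukin 1 receptor, stood at 12.7 ± 0.7 CPM in WT starved and 651 ± 15 CPM in WT fed cells. In KO-labelled cells it stood at 9.52 ± 0.55 CPM starved and 35.4 ± 1.8 CPM fed. Between genotypes 11 of the 18 were higher in KO-labelled cells both when starved, with 7 lower, and when fed, with 6 lower. All genes tested gave 41.9% higher and 37.7% lower when starved, and 34.5% higher and 39.8% lower when fed. Mmp3, a matrix metalloproteinase, was read at 98.5 ± 1.9 and 266 ± 1.6 CPM in KO-labelled starved and fed cells and at 0.826 ± 0.61 and 1.45 ± 0.57 CPM in WT starved and fed cells. Cxcl1, a neutrophil chemokine, was 18.6-fold lower in fed KO-labelled than in fed WT cells.

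**Figure D5:**
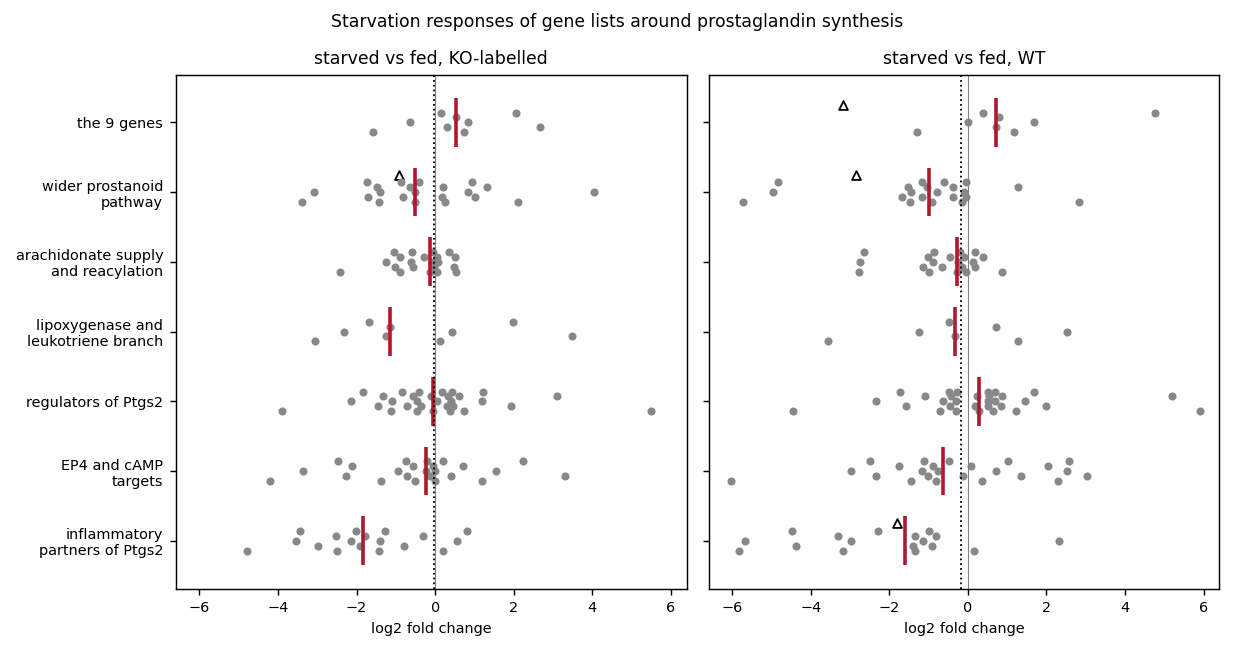
Log2 fold change in starvation of the tested genes (points) among the 9 genes and of 6 lists around them, for KO-labelled (left) and WT cells (right). Genes with 0 counts in the starved libraries and too few in the fed ones for a bound are not drawn. Genes near the floor with counts in both groups are drawn. Triangles are bounds for genes with 0 counts in the starved libraries, red lines the list medians with those bounds, and the dotted line the median of all genes. Ptgs2 is the point at 4.76 in the top row for WT, and the inflammatory partners have the lowest medians of the 7 rows, -1.84 and -1.6.

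The genes whose levels were most like those of Ptgs2 over the 8 libraries, by Pearson's r of log2(CPM + 1) among 10377 genes with a mean of at least 5 CPM, were Gpbp1l1 (0.9997), Atf3 (0.9988), Swt1 (0.9986), Atg16l1 and Kansl3 (0.9983 each). The 8 points come from 4 groups of 2 libraries, so such values describe 4 levels. Atf3 had the swing nearest in size to that of Ptgs2, whereas Gpbp1l1 spanned 29.1 to 53.8 CPM. The gene most like Pla2g4a was Raly (0.9985), that most like Ptgs1 was Anxa8 (0.9995; 378 and 226 CPM in KO-labelled starved and fed cells, 12.5 and 8.37 CPM in WT starved and fed cells), and that most like Ptger4 was Khnyn (0.9927). Ptges was most like Eci2 (0.9924), Ptges2 like B3gat2 (0.9968), Ptges3 like Pcmt1 (0.998), Ptgis like Pgls (0.9883) and Hpgd like Pnrc2 (0.9949).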

How the data were processed

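RNA of 8 libraries was sequenced. The values are raw counts of reads for each RefSeq transcript, as the authors deposited them. TopHat2 2.0.9, bedtools and build mm9 are named in the submitters' processing notes, without roles. Another 4 value columns matched no labelled sample and were not used. For each of 23366 symbols, the transcript with the most counts was kept out of 31055. The test was edgeR 4.0.16 under R 4.3.3 (TMM, filterByExpr, 1 coefficient per group over all 8 libraries with 4 residual degrees of freedom, quasi-likelihood F test, Benjamini-Hochberg over 14418 genes). The SE was derived from the F statistic and the log2 fold change. Alternatives were library totals, relative log expression factors, DESeq2 1.42.0, other filters, summed rows, the compared groups alone, the replicate number as a block, and each library left out (for list genes, chosen after seeing the data). The test was checked on simulated data in which few genes changed, evenly up and down. That check does not cover data in which most genes are called, as here. Beside the 9 genes and Kdm3a, the text names, per list and comparison, up to 3 called genes with the largest change and a mean of at least 1 CPM. It also names a few list genes and overlapping genes chosen after their values were seen (Ptger1, Ptger2, Ptger3, Gpr44, Ptgir, Tbxa2r, Abcc4, Pla2g6, Ptgds, Hpgds, Tbxas1, Il1a, Alox5ap, Ttc33). Cebpb, Slco2a1, Pla2g12a, Ddit3 and others are also named outside the comparison that selected them. Of 152 list symbols 151 were in the table. Promoters came from RefSeq (GRCm38.p6), which gave 1 or more for 8 of the 9 genes, Ptgis being the other. Transcript lengths came from GENCODE M21. For likeness, the 5 genes with the highest r per gene were taken. The members and lists were chosen with earlier results of these data known. Intervals and floors cover counting error only.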

Additional observations from a re-analysis of the deposited data

Results flagged for a closer look

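The starvation responses of KO-labelled and WT cells were compared by the test of the difference itself (KO-labelled minus WT, log2). It called 64.5% of all genes tested. Among the called genes were 5 of the 9 genes and Kdm3a. The values were -2.1 for Ptgs2, -0.89 for Pla2g4a, -0.56 for Ptges3, 0.66 for Ptges and -1.43 for Kdm3a. The fitted value for Hpgd was 6.67, on 0 and 4 counts in KO-labelled starved and 0 and 0 counts in WT starved libraries, so it is no measure of size, and it was not called without WT starved replicate 1 or replicate 2, KO-labelled fed replicate 1 or KO-labelled starved replicate 2.

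In the wider prostanoid pathway the differences were 2.34 for Ptgfr (1.67 without KO-labelled starved replicate 1), 1.75 for Pla2g4b and 1.69 for Slco2a1, which rose in KO-labelled and fell in WT cells. Among genes of arachidonate supply they were 2.69 for Mgll, 1.38 for Dagla and 1.17 for Daglb, and in the leukotriene branch -0.59 for Lta4h. Among regulators of Ptgs2 they were -2.81 for Atf3, -1.82 for Hnrnpd and -1.8 for Cebpb, which was -1.18 without WT starved replicate 1 (271 CPM) and -2.43 without WT starved replicate 2 (114 CPM). Among EP4 and cyclic AMP targets they were 1.83 for Has2, -1.58 for Il6 (not called without WT starved replicate 1) and -1.46 for Vegfa. Among inflammatory partners they were 3.77 for Il1rn, 2.36 for Cxcl1 and 2.15 for Lcn2. Groups of 2 libraries are too small for a search for outlying samples.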

How the results depend on the processing

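Of 698 recomputed log2 values of the 9 genes, 662 kept their direction and their side of the threshold, 20 lost a call, 3 gained one and 13 reversed. With library totals, the reversals were -0.07 for Ptgs1 and -0.44 for Ptgis in WT starvation, -0.11 for Ptges3 in KO-labelled starvation, 0.057 for Ptges3 and 0.091 for Kdm3a between fed genotypes, 0.13 for Ptges between starved genotypes and 0.15 for Ptges2 in the difference of responses. Between fed genotypes Kdm3a was also 0.013 under DESeq2 and under relative log expression factors, 0.022 when a gene needed 5 CPM, and 0.034 in a fit of only the groups compared. Leaving out 1 library at a time gave -0.197 to 0.322 for Ptgis in WT starvation, -0.076 to 0.004 for Ptges3 and -0.031 to 0.039 for Kdm3a between fed genotypes, and, in the difference of responses, -0.026 to 0.302 for Ptgs1 and -0.261 to 0.017 for Ptges2. The difference of responses was called for 3 to 5 of the 9 genes, with 3 reached without WT starved replicate 1. A leave-out that leaves 1 library in a group assumes that it varies like the others. Causes were not tested. Same-numbered replicates did not deviate together over all tested genes (correlations of -0.0443 to 0.0309), so no sign of pairing was seen. With 1 difference per group, this cannot show that same-numbered libraries had separate origins. With the replicate number as a block, all 45 values of the 9 genes kept their call, Ptgs2 in WT starvation standing at 4.76. Depth limits Hpgd and Ptgis most.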
